A study of Mus musculus with 12 samples.

Results

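Transcripts whose RNA and whose ribosome footprints both fell when mouse embryonic fibroblasts were warmed are described here. Of 63759 transcript IDs in the files, 46419 had a listed length and 21604 of these had at least 20 counts in every library of cells kept at 35 °C. Members were the IDs in which the difference between warm and 35 °C cells, in log2(CPM + 0.5), was -0.4 or less in each of the 3 replicate numbers in RNA and in each of the 3 in footprints. CPM is the count per 1000000 counts of the library, and a difference of -0.4 is a fall of 24.2%. The rule gave 61 IDs. Isoforms can receive the same reads, so IDs within 30 rows of each other were joined where the larger count exceeded the smaller by at most 25% in all 12 libraries. This left 40 groups, called member groups below, among 14419 groups that passed the count minimum. These 14419 are called all groups, and they are 1 ID each, the one with the most counts.

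The cells were primary fibroblasts of wild-type C57BL/6 mouse embryos, grown to full confluence and synchronised with Dex. In 1 treatment, called WTS in the labels, they spent 2 h at 38.5 °C in place of 35 °C, beginning 24 h after Dex, and in the other they stayed at 35 °C. When the cells that stayed at 35 °C were harvested is not given in the sources used here, so harvest time and warming cannot be told apart. RNA-seq and ribosome profiling were each run on 3 replicates per treatment, which makes 12 libraries in 4 groups.

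An mRNA's abundance is set by its synthesis and its decay. The number of ribosomes it carries in a culture depends, among other things, on its abundance and on how often translation starts on it. Ribosome profiling sequences the stretches of mRNA that ribosomes shield from nuclease, so footprint counts follow both. Mild warming within the range of body temperature is known to change the abundance of many transcripts, among them those of chaperones, which rise, and of cold-inducible RNA-binding proteins, which fall, and daily temperature cycles can set the phase of the circadian clock. The files hold transcript IDs alone, without gene names, and 0 of them matched the tables of gene names and sequences used here. Which genes the members belong to, the fibroblast markers and the gene lists for chaperones, cold-inducible proteins, clock, immediate early, glucocorticoid and matrix genes were therefore not examined here. Only 2 member IDs are named, and other members are called by their rank in the order of their mean fall.

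Library totals were 8686742 to 12212227 counts in RNA and 8449802 to 82560281 in footprints. Replicate 1 stood apart from replicates 2 and 3 in both assays and was the deepest footprint library of each treatment. It is present once in every group, and the rule compares libraries of the same replicate number only. The counts of a difference therefore never mix replicate 1 with the others.

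The member with the largest mean fall was uc007gce.1, with a listed length of 163. Its RNA stood at 28.1, 16.7 and 17.2 CPM in replicates 1, 2 and 3 at 35 °C and at 10.6, 5.85 and 4.18 CPM after warming. Its footprints stood at 27.1, 28.0 and 24.9 CPM at 35 °C and at 10.7, 9.62 and 10.3 CPM after warming. Replicate 1 was the highest in RNA under both treatments, the footprint values lay close together within each treatment, and warm and 35 °C values did not overlap in either assay. The mean difference was -1.57 ± 0.30 in RNA and -1.35 ± 0.14 in footprints (log2, SD over 3 replicate numbers). The counts behind the warm values were 51 to 92 in RNA and 91 to 881 in footprints. In cultures measured as a whole, fewer cells of a type and less RNA per cell cannot be told apart.

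The member with the highest mean footprint CPM at 35 °C was uc011xbr.1, with a listed length of 339, ranked 28 by its mean fall. Its RNA stood at 443.5, 144 and 129 CPM at 35 °C and at 299.2, 85.7 and 81.7 CPM after warming. Its footprints stood at 1531, 505 and 469 CPM at 35 °C and at 970.0, 299.1 and 273 CPM after warming. Replicate 1 held over 3 times the RNA and footprint CPM of replicates 2 and 3 under both treatments, so the treatments overlapped when the replicate number was ignored. Within each number the values were lower after warming, with a mean difference of -0.66 ± 0.09 in RNA and -0.73 ± 0.06 in footprints (log2, SD over 3 numbers). The 2 named members thus differed in how far replicate 1 stood from the others, and both fell in all 6 same-number comparisons, as the rule required. By footprints at 35 °C, the group ranked 23 stood above uc011xbr.1 in replicates 2 and 3, at 571 and 594 CPM.

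**Figure D1:**
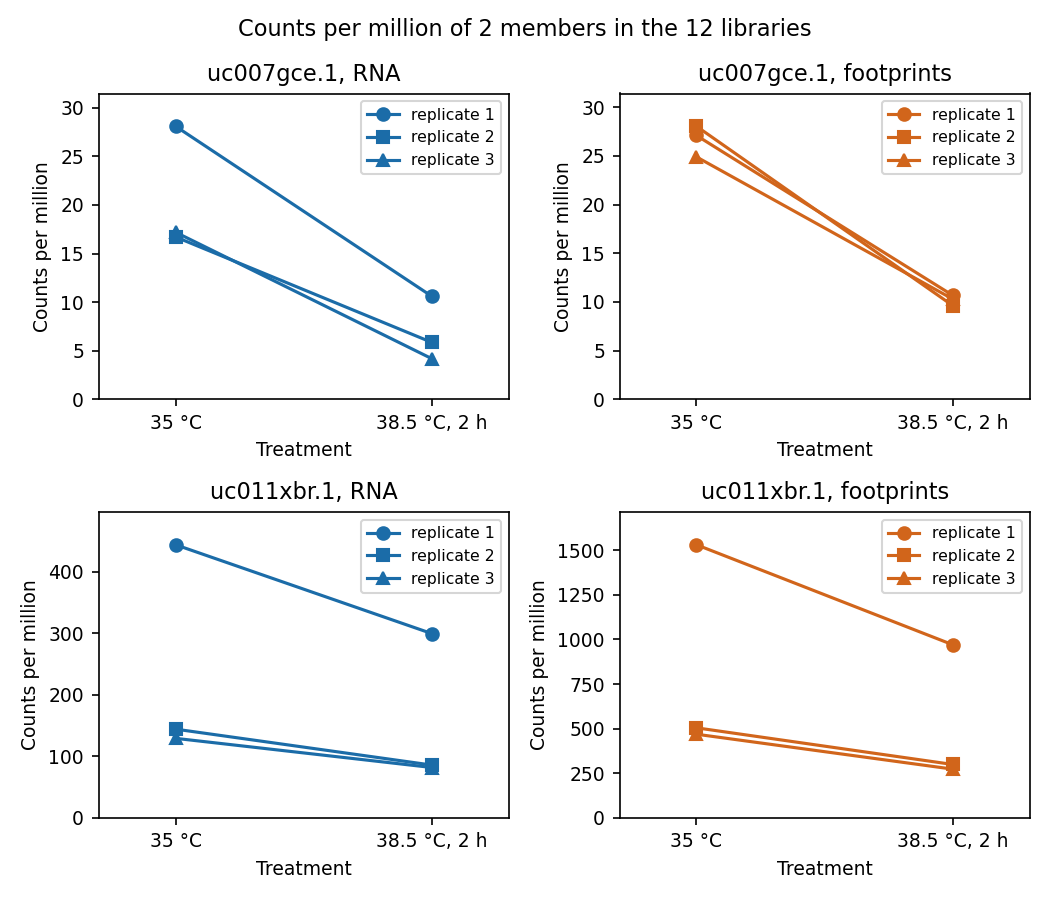
CPM (linear axes from 0) of uc007gce.1 (top) and uc011xbr.1 (bottom) in RNA (left) and footprints (right), with lines joining the 35 °C and warm libraries of the same replicate number. For uc007gce.1 the warm footprint values of 9.62 to 10.7 lie below the 35 °C values of 24.9 to 28.0, and for uc011xbr.1 replicate 1 lies above the others at both temperatures while every line slopes down.

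The group ranked 2 held 4 IDs with near-identical counts and had the largest footprint fall of all 40. Its RNA went from 39.7, 51.8 and 58.9 CPM at 35 °C to 21.1, 23.4 and 23.3 CPM after warming. Its footprints went from 43.3, 59.5 and 59.0 CPM to 13.1, 20.3 and 17.8 CPM. The groups did not overlap in either assay, and the mean footprint difference of -1.64 ± 0.10 was larger in size than the RNA difference of -1.12 ± 0.21 (log2, SD over 3 numbers).

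The group ranked 3, with a listed length of 1168, was abundant in RNA relative to its footprints. Its RNA went from 18.6, 17.9 and 19.6 CPM to 7.48, 7.47 and 7.45 CPM, while its footprints went from 3.33, 3.67 and 5.92 CPM to 1.57, 1.69 and 1.93 CPM. The RNA values hardly differed between replicates of a treatment. The footprint values after warming rested on 130, 16 and 27 counts in replicates 1, 2 and 3, so those of replicates 2 and 3 carry a large counting error.

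The largest group, ranked 6, held 6 IDs. Its RNA went from 114, 102 and 105 CPM to 63.2, 52.8 and 57.9 CPM. Its footprints went from 120, 140 and 130 CPM to 50.5, 69.3 and 65.7 CPM. With at least 523 counts in every library, it was among the members with the smallest counting error, and all replicates of a treatment lay on the same side of all replicates of the other.

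Across the 40 groups the mean of the 6 differences ran from -1.46 to -0.47, with a median of -0.77 (log2). The median over groups was -0.67, -0.72 and -0.65 in RNA for replicates 1, 2 and 3 and -0.85, -0.75 and -0.83 in footprints. Over all groups the same medians were 0.05, -0.01 and 0.00 in RNA and 0.07, 0.00 and -0.02 in footprints. These values chose the members and carry no test. A mean fall of at least 1 on the log2 scale was seen in 4 groups, and in 8 groups the mean fall was under 0.6. The SD of the differences between replicate numbers had a median of 0.14 in RNA and 0.15 in footprints, with a highest value of 0.62 and 0.59. The rule favours groups whose replicate numbers agree, and no SD over all groups is set beside these values.

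**Figure D2:**
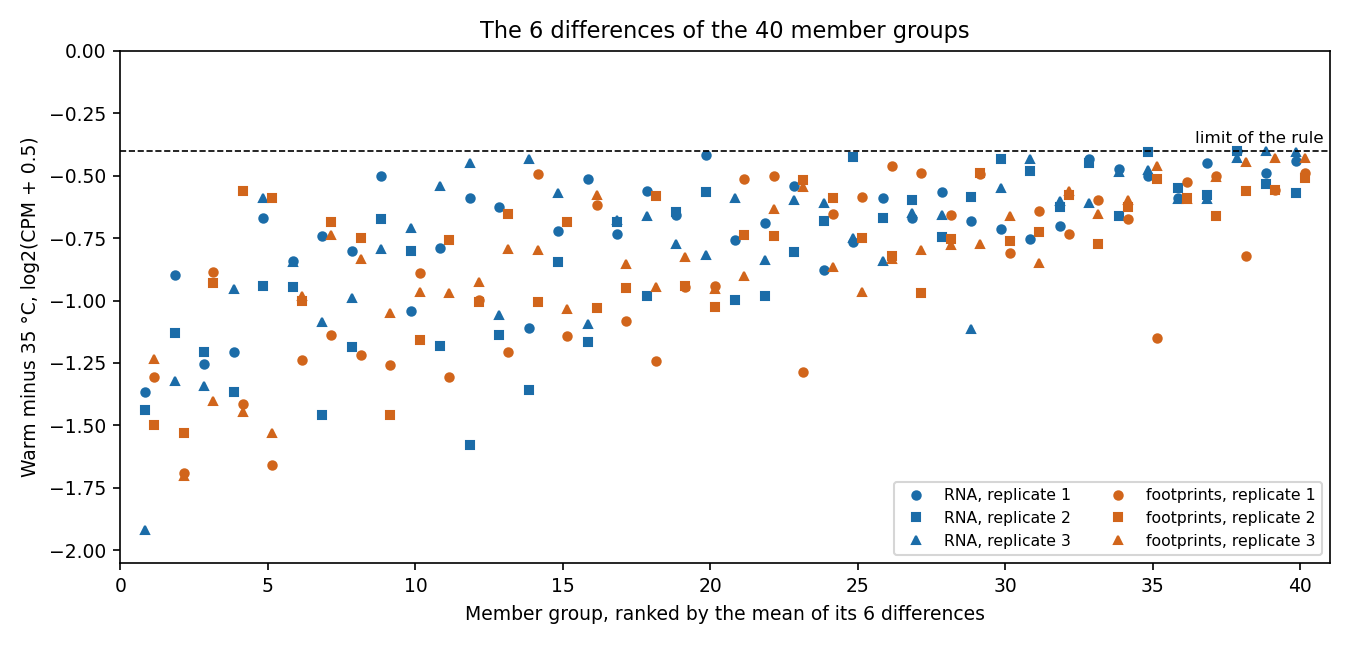
The 6 differences (warm minus 35 °C, log2(CPM + 0.5)) of each of the 40 member groups, ranked by their mean, for RNA (blue) and footprints (orange) with a symbol for each replicate number. Every point lies at or under the dashed limit of -0.4 because the rule requires it, and the means run from -1.46 at rank 1 to -0.47 at rank 40.

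Members at the edge of the rule resembled the groups just beyond it. The groups ranked 38, 39 and 40 had weakest differences of -0.40, -0.40 and -0.41, with means of -0.51, -0.49 and -0.47. The 3 groups just outside had weakest differences of -0.39, -0.39 and -0.39, with means of -0.51, -0.61 and -0.62. Between a weakest difference of -0.45 and the limit lay 12 members, and 15 other groups lay between the limit and -0.35. Of all groups, 10472 met the limit in 0 of the 6 differences, 2446 in 1, 874 in 2, 352 in 3, 164 in 4, 71 in 5 and 40 in 6. The numbers fell off without a gap, so the 40 are the end of a continuous range.

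The rule also asks for the number found when warm and 35 °C labels are exchanged in 1 replicate number. The exchange gave 0 IDs in number 1, 0 in number 2 and 0 in number 3, against 61 with the labels as given. In the opposite direction, 92 IDs in 62 groups rose by 0.4 or more in all 6 differences. Rises were thus more frequent than falls on the scale of library totals. With TMM scaling, which estimates a library's effective size from the bulk of its IDs, the order was less clear, at 50 groups that rose and 47 that fell.

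Counting error was not negligible in many members. In 30 of the 40 groups every one of the 6 differences exceeded 2 standard errors of counting alone, and in 10 at least 1 difference did not. The count minimum applied to 35 °C libraries only, and 7 groups had fewer than 20 counts in a warm library. The lowest was 8 counts, in the footprints of warm replicate 2 of the group ranked 9, whose listed length of 74 was the shortest among members. Its footprints went from 2.52, 3.20 and 2.61 CPM to 0.763, 0.846 and 1.0 CPM. Warm values stayed under the 35 °C values in all 3 replicate numbers, but they rest on 63, 8 and 14 counts.

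When the replicate numbers were ignored, every warm library lay below every 35 °C library in RNA for 29 of the 40 members, against 4.25% of all groups. In footprints this held for 24 members, against 3.07% of all groups. The rule used these values, so nothing is read from the counts. The groups ranked 39 and 40 show how replicate 1 makes the treatments overlap. The RNA of the group ranked 39 was 35.1, 72.7 and 66.4 CPM at 35 °C and 24.9, 50.1 and 50.1 CPM after warming, with replicate 1 the lowest of both treatments. That of the group ranked 40 was 70.7, 47.1 and 40.2 CPM at 35 °C and 51.9, 31.6 and 30.2 CPM after warming, with replicate 1 the highest.

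In edgeR's quasi-likelihood test over all IDs, without the replicate number as a block, 0 of the 61 member IDs were called lower in RNA at an adjusted p under 0.05, against 0% of the 27223 IDs tested. At an unadjusted p under 0.05 there were 1118 IDs in either direction. DESeq2 called 45 of the 27223 IDs, 26 higher and 19 lower, and all 19 lower ones were member IDs. In footprints 4 member IDs were called lower, those of the group ranked 2, against 0.0149% of the 26920 IDs tested. With the replicate number as a block, 60 of the 61 were called lower in RNA and 61 in footprints, against 2.38% and 3% of the IDs tested. The one not called in RNA was the group ranked 27 (edgeR adjusted p = 0.0644 with the block). Since the members were chosen on this contrast, these counts describe the rule and are no further evidence.

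What the replicate number left out of the rule shows can be read separately. Groups were chosen by the same limit in both assays of 2 replicate numbers and looked at in the third. The 99 groups chosen in numbers 2 and 3 had a median difference of -0.44 in RNA and -0.50 in footprints of number 1, where all groups had 0.05 and 0.07. The 67 chosen in numbers 1 and 3 had -0.60 and -0.59 in number 2, against -0.01 and 0.00. The 73 chosen in numbers 1 and 2 had -0.48 and -0.60 in number 3, against 0.00 and -0.02. Most of the chosen groups thus fell in libraries that had no part in the limit. All 40 members are in each of these lists, and the rule had them meet the limit in the number left out as well.

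The share of chosen groups below 0 in the number left out was 87.9% to 97.0% in RNA and 91.9% to 94.5% in footprints. Over all groups it was 42.0% to 51.4% in RNA and 40.8% to 53.7% in footprints. The limit of -0.4 itself was met by 53.5% to 71.6% of the chosen groups in RNA and by 62.6% to 74.6% in footprints, against 5.73% to 9.07% and 7.05% to 8.37% of all groups. The falls were smaller in the number left out than among the 40 members, whose medians are bounded by the rule in every number. The count minimum was asked of the 35 °C libraries of the number left out as well, but not of its warm ones. The libraries left out thus had a part in the choice through that minimum. In the correlations given with the processing, number 2 lay closer to number 3 than to itself in both assays, number 3 in RNA lay between the crossed values, and number 3 in footprints was closer to itself by a small margin (0.654 against 0.632 and 0.646), so these 2 are not clearly told apart.

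**Figure D3:**
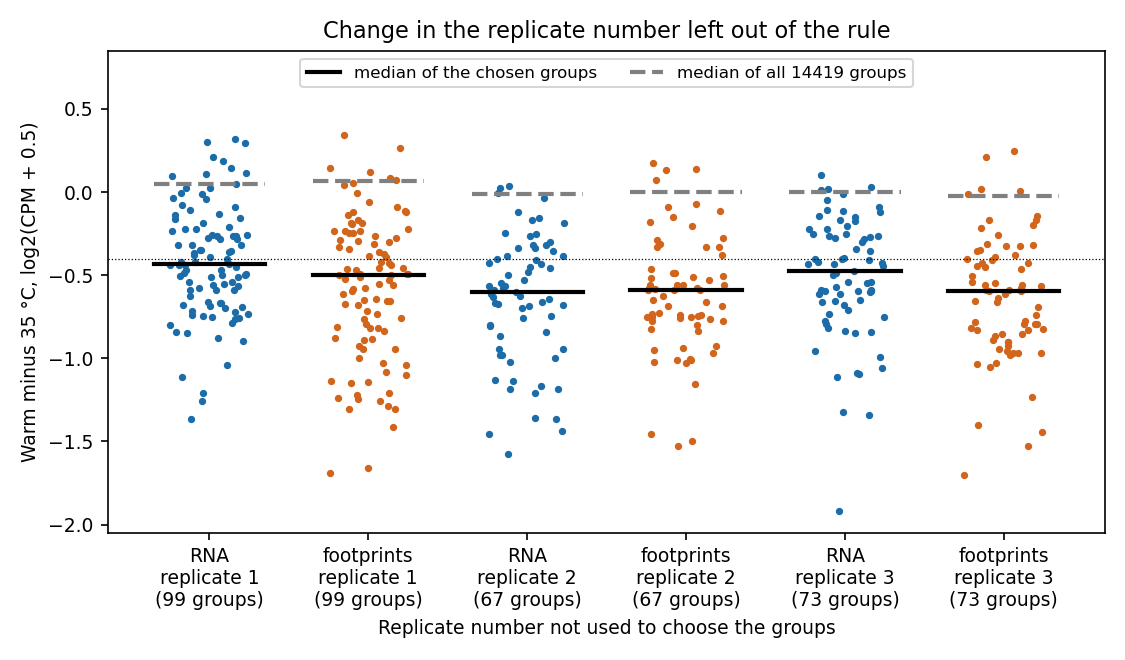
Difference between warm and 35 °C (log2(CPM + 0.5)) in the replicate number left out of the limit, with 1 point per chosen group. Black bars mark their medians and dashed grey bars the medians of all 14419 groups. The 35 °C libraries of that number still had to pass the count minimum. The black bars lie between -0.60 and -0.44 and the grey bars between -0.02 and 0.07, while a few points in every column lie above 0.

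Choosing on 1 assay and looking at the other gave an unequal picture. The limit was met by all 3 RNA differences in 91 groups, whose mean footprint difference had a median of -0.56, and 80 of them were below 0 in all 3 footprint differences. It was met by all 3 footprint differences in 156 groups, whose mean RNA difference had a median of -0.45, and 116 of them were below 0 in all 3 RNA differences. The 40 members are 44.0% of the first list and 25.6% of the second. Over all groups, 20.3% were below 0 in all 3 footprint differences and 17.1% in all 3 RNA differences. RNA and footprint libraries of a number may come from 1 culture, which the labels do not say.

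Among members the RNA and footprint falls were of similar size, which the rule favours by setting the same limit in both assays. Footprints fell further than RNA on average in 26 groups and RNA further in 14, with a median of footprint minus RNA difference of -0.10 and a range of -0.60 to 0.24 (log2). The order was the same in all 3 replicate numbers in only 13 groups, 11 with footprints lower and 2 with RNA lower, and it was mixed in 27. By number, the median was -0.13, 0.01 and -0.11 for replicates 1, 2 and 3, where all groups had 0.03, 0.01 and -0.03. Replicate 2 thus showed no such order. Across the 40 groups the 2 mean differences correlated at r = 0.65 (Spearman's rho 0.65), a description over groups that share libraries and were selected on both measures.

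Translational efficiency is the ratio of footprints to RNA, and its change with warming was estimated by an assay-by-treatment term fitted to all 12 libraries. None of the 61 member IDs was called lower by edgeR (adjusted p under 0.05), against 0% of the 28054 IDs tested, with the block or without it. Over all IDs, 290 had an unadjusted p under 0.05 without the block and 721 with it, and DESeq2 called 0. Both numbers are fewer than evenly spread p-values would give at 0.05, so the absence of calls carries little weight. The block is a replicate term shared by both assays, so replicate deviations that differ between RNA and footprints stay in the residual. The lowest estimates with the block were those of the groups ranked 5, 9 and 2, at -1.03 ± 0.34, -0.93 ± 0.32 and -0.53 ± 0.17 (log2, SE), and the highest was that of the group ranked 29, at 0.36 ± 0.27. For uc007gce.1 it was 0.24 ± 0.20 and for uc011xbr.1 -0.07 ± 0.21. The group ranked 5 had 23 to 79 footprint counts per library.

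**Figure D4:**
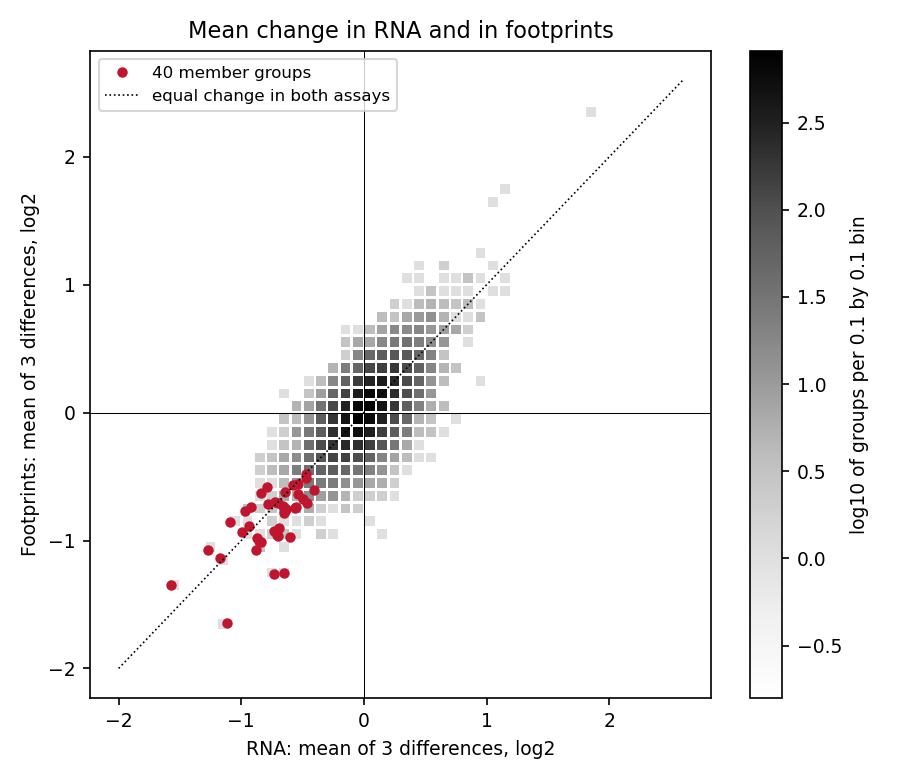
Mean of the 3 differences in RNA (x axis) and in footprints (y axis), log2, for the 40 member groups (red) over all 14419 groups, shown as grey squares of 0.1 by 0.1 whose shade is the log10 of the number of groups. The members lie at the lower left end of a cloud stretched along the dotted line of equal change, and the group ranked 2 lies lowest, at -1.12 in RNA and -1.64 in footprints.

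The rule made no use of how heavily an RNA was covered by ribosomes, how it differed between replicate 1 and the others, or its listed length. The ratio of footprints to RNA was averaged over both treatments, which separates it from the warming contrast. Members ranged from few to many footprints per RNA. In edgeR, 19 of the 40 groups had a higher ratio than the average that TMM scaling sets (adjusted p under 0.05), which is 47.5%, against 33.8% of all groups. A lower ratio was called in 9, which is 22.5%, against 31.3% of all groups, and 12 were not called.

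The median log2 ratio was 0.45 in members, with quartiles at -0.34 and 0.93, and 0.06 in all groups, with quartiles at -0.56 and 0.64. The member distribution thus lay somewhat higher and overlapped most of that of all groups. Whether the shift is more than chance was not tested. With total-count scaling in place of TMM the median of all groups moved from 0.06 to -0.32 and the calls in members became 11 higher and 13 lower, at 17.4% and 42.3% of all groups. Relative to all groups the order stayed, with 25 members above the median of all groups under TMM and 26 under total counts.

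The highest ratio belonged to the group ranked 23, at 2.41 (log2). Its RNA stood at 105, 136 and 124 CPM at 35 °C and its footprints at 375, 571 and 594 CPM. The named uc011xbr.1 was close to it, at 2.31 ± 0.65 (SE; edgeR adjusted p = 0.00936), and uc007gce.1 stood at 0.90 ± 0.24 (SE; edgeR adjusted p = 0.00699). For uc007gce.1 the call was lost with total-count scaling (0.48, edgeR adjusted p = 0.0700), and both calls were lost in the 35 °C libraries alone (2.35, edgeR adjusted p = 0.0507, for uc011xbr.1 and 0.78, edgeR adjusted p = 0.0529, for uc007gce.1). The call of uc011xbr.1 was also lost in the warm libraries alone (2.27, edgeR adjusted p = 0.0562) and without replicate 2 (2.37, edgeR adjusted p = 0.0539). That of uc007gce.1 was lost without replicate 2 (0.86, edgeR adjusted p = 0.0767) or 3 (0.81, edgeR adjusted p = 0.0528). The log2 ratios in these fits on fewer libraries stayed within 1 SE of the values from all 12. Both calls stayed in DESeq2, without replicate 1 and with the replicate block. With the block the ratio was 2.18 ± 0.11 (SE; edgeR adjusted p = 2.26e-12) for uc011xbr.1. For uc007gce.1 it was 0.91 ± 0.10 (SE; edgeR adjusted p = 1.30e-07). The lowest ratio belonged to the group ranked 5, at -3.37, whose RNA stood at 46.6, 52.7 and 39.4 CPM at 35 °C and whose footprints stood at 3.38, 3.91 and 6.73 CPM. A fall in both assays was therefore found among RNAs at both ends of ribosome coverage.

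Replicate 1 differed from replicates 2 and 3 in members in both directions. With treatment as a covariate, edgeR called 11 members higher in RNA of replicate 1 and 7 lower (adjusted p under 0.05), against 21.7% and 23.6% of all groups, which is 27.5% and 17.5% of members. With total-count scaling the RNA calls in members were 9 higher and 9 lower. In footprints 7 were called higher and 13 lower, against 27.9% and 24.9% of all groups, which is 17.5% and 32.5% of members. With total-count scaling the footprint median of all groups moved from 0.00 to -0.49 and 30 members were called lower, at 68.8% of all groups. Both assays were called in 13 members, 7 higher in both and 6 lower in both, against 15% and 12.9% of all groups, and 0 members were called in opposite directions, against 3.07% of all groups. Members were thus found in both directions. In footprints they were called higher less often and lower more often than all groups, and in RNA the reverse held under TMM. With DESeq2 the footprint calls were 12.5% higher and 30% lower in members, against 23.1% and 16.8% of all groups. Whether these differences are more than chance was not tested.

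The largest excess in replicate 1 was that of uc011xbr.1, at 1.83 ± 0.07 in RNA and 2.21 ± 0.07 in footprints (log2, SE; edgeR adjusted p = 1.29e-22 and 1.09e-14). The group ranked 30 followed, at 1.22 in RNA and 1.42 in footprints. The largest deficits in footprints were those of the groups ranked 39 and 10, at -1.39 and -1.15, with -0.93 and -1.16 in RNA. For uc007gce.1 the excess was 0.93 ± 0.14 in RNA (SE; edgeR adjusted p = 7.08e-07) and 0.57 ± 0.09 in footprints (SE; edgeR adjusted p = 6.39e-05). The footprint value of uc007gce.1 became 0.06 with total-count scaling (edgeR adjusted p = 0.561).

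**Figure D5:**
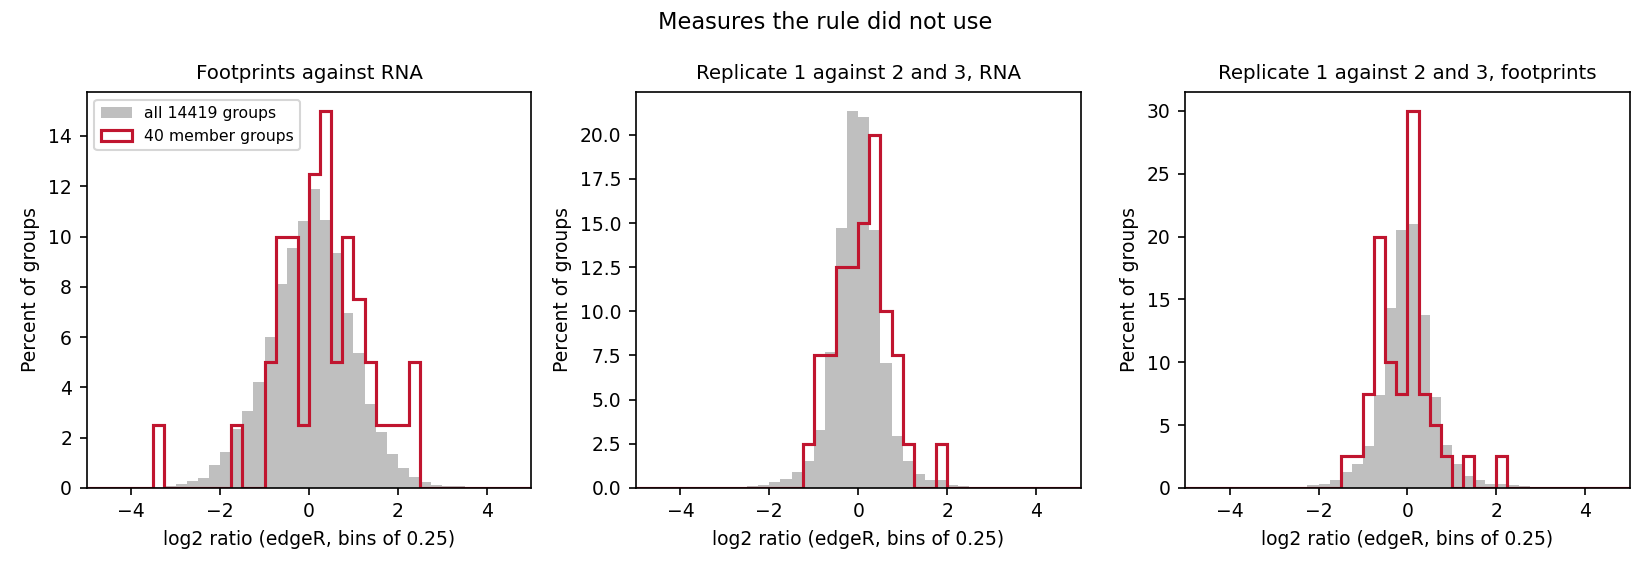
Share of groups (percent, y axis) by log2 ratio in bins of 0.25 (x axis) for the 40 member groups (red outline) and all 14419 groups (grey), for footprints against RNA (left) and replicate 1 against replicates 2 and 3 in RNA (middle) and in footprints (right), from edgeR with TMM scaling. The red outlines overlap the centre of the grey distribution in each panel, with member medians of 0.45, 0.10 and -0.04 against 0.06, -0.01 and 0.00 in all groups.

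The listed length of members ran from 74 to 1306, in a unit that the files do not state, with a median of 398. All groups had a median of 407, with quartiles at 240 and 670, and 27 of the 40 members lay between these. More than 1000 was listed for 2 members, and for 11.2% of all groups. More than 1 ID with near-identical counts was present in 13 members, which is 32.5%, against 29.6% of all groups. In members only IDs that met the limit themselves were counted, and in all groups every ID past the count minimum. The 2 shares are therefore not a like comparison. The median length of members thus lay near that of all groups, while their quartiles, at 262 and 569.5, were closer together.

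Some member groups lay beside each other in the files and may be isoforms of 1 gene, so 40 can exceed the number of genes. Joined where they lay within 30 rows, the 40 groups formed 34 stretches, of which 5 held 2 or 3 member groups each, 11 in all. The groups ranked 7, 8 and 13 lay within 5 rows of each other and had 2 IDs each. Other groups close to a member did not fall as a rule: the 103 other groups within 5 rows of a member ID had a median mean difference of -0.03, against 0.01 in all groups. All 6 differences were below 0 in 18 of these 103, which is 17.5%, against 8.46% of all groups. Neighbours can share part of their reads with a member, and how far that enters this share was not tested.

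The 40 members made up a small part of each library, taken as 1 ID per group. They held 0.144%, 0.120% and 0.115% of RNA counts in replicates 1, 2 and 3 at 35 °C and 0.0926%, 0.0720% and 0.0722% after warming. In footprints they held 0.271%, 0.232% and 0.233% at 35 °C and 0.153%, 0.146% and 0.145% after warming. Their share of footprints was above their share of RNA in all 6 pairs of libraries, and uc011xbr.1 alone gave the largest part of it in replicate 1.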

How the data were processed

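RNA-seq and ribosome footprints were measured in 3 libraries per treatment. Per the submitters' processing notes, CASAVA 1.8, STAR 2.7.0 and the mm10 build were used. Raw counts per transcript ID, with a length, are what the authors deposited. Which counter and annotation release they used, and how it treated reads of shared exons, is not given in the sources used here. All 17340 IDs without a length held 0 counts and were left out. Reads shared between isoforms count in each ID that received them, so library totals can count a read more than once.

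Members were found with Python 3.11.15 from CPM over the library total, without TMM. IDs were joined as near-identical where both had a mean of at least 10 counts, with 1 added to each count. Tests used edgeR 4.0.16 in R 4.3.3 (robust quasi-likelihood F test, TMM, filterByExpr by group, Benjamini-Hochberg over all IDs, threshold 0.05), and DESeq2 1.42.0 as an alternative. Standard errors come from the fold change and F. Scripts were tested on simulated data. The members and lists were chosen with earlier results of these data known. Named were the member with the largest mean fall and the member with the highest mean footprint CPM at 35 °C. The other alternatives tried were scalings, filters, limits, the collapse of IDs and leaving out libraries.

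The series design text states independent experiments, without saying that a number marks a shared culture, so p-values measure the spread between these samples. Deviations from the group means correlated across IDs between libraries of the same number. The values were 0.840, 0.485 and 0.585 in RNA and 0.853, 0.606 and 0.654 in footprints for numbers 1, 2 and 3. This is taken as pairing for number 1 only. Crossing numbers 2 and 3 between treatments gave correlations of 0.571 and 0.638 for RNA, and of 0.632 and 0.646 for footprints. These are near or above the values of the same number, so pairing of numbers 2 and 3 is not established. Deviations from a group mean cancel out, so a number 1 that stands apart makes numbers 2 and 3 correlate whether paired or not.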

Additional observations from a re-analysis of the deposited data

How the results depend on the processing

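The number of member groups, 40, became 89 with a limit of -0.3 and 24 with -0.5, 61 when IDs were not joined, 67 to 99 when 1 replicate number was left out of the rule, and 62 in the rising direction. It was 0 with treatments exchanged in number 1, 2 or 3, and it stayed within 1.5 times under the other pseudocounts, count minimums, join ratios and TMM, where 39 of the 40 were found again. In RNA, edgeR's 0 calls stayed 0 without 1 library. DESeq2 made 45. The replicate block raised them to 1267, or 841 with joined IDs and 207 in DESeq2, and leaving out 1 number in the block fit gave 375, 600 and 1202 for numbers 1, 2 and 3. In footprints, edgeR's 8 calls were 0 under total-count scaling, 2 with joined IDs, 0 to 8 without 1 library, and 83 in DESeq2. The replicate block raised them to 1748, or 1151 with joined IDs and 524 in DESeq2, and leaving out numbers 1, 2 and 3 gave 2836, 1660 and 1727. For translational efficiency the count was 0 under every alternative run, including the replicate block shared by both assays.

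Leaving out 1 library without a block makes number 1 unequal over the treatments. For uc011xbr.1 the warming estimate, -0.66 in RNA and -0.74 in footprints, then ran from -1.57 to 0.20 and from -1.89 to 0.39, above 0 only without replicate 1 at 35 °C. With the block and without number 1 it was -0.70 and -0.76. The interaction of uc011xbr.1, -0.08, ran from -1.24 to 1.08 and was above 0 without RNA replicate 2 or 3 at 35 °C, warm RNA replicate 1, footprint replicate 1 at 35 °C, or warm footprint replicate 2 or 3, at 0.19, 0.23, 0.81, 1.08, 0.26 and 0.28. That of uc007gce.1, 0.23, ran from -0.081 to 0.68 and was below 0 without RNA replicate 1 at 35 °C (-0.081) or warm RNA replicate 3 (-0.04). What lies behind the remaining changes was not tested. The block with joined IDs, in DESeq2 or without a number, and the ratio and replicate 1 contrasts without a number, were added after seeing the data.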

Other observations

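The groups ranked 23 and 35 lay 8 rows apart, had listed lengths of 203 and 210, and shared a pattern across replicate numbers. The footprint differences of the group ranked 23 were -1.29, -0.52 and -0.55 (log2) in numbers 1, 2 and 3, and those of the group ranked 35 were -1.15, -0.51 and -0.46. In RNA the same groups had -0.54, -0.81 and -0.60, and -0.50, -0.41 and -0.48, with no such excess in number 1. A footprint difference in number 1 that was lower than both others by 0.5 or more was seen in 263 of all groups, which is 1.82%. Among members it was seen in these 2 groups alone, which may belong to 1 gene. The footprint libraries of number 1 were unequal in depth, at 23393113 counts at 35 °C and 82560281 after warming. Whether depth bears on this pattern was not tested. The footprint counts behind number 1 were 8779 and 12687 for the group ranked 23 and 4492 and 7121 for the group ranked 35, at 35 °C and after warming, so counting error is small here.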
